A study of Rattus norvegicus with 6 samples.

Results

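Class o transcripts were assembled RNAs that the authors' lncRNA table marks with the code o, which in the Cufflinks naming stands for an exon overlap with a reference gene that is neither a match nor a shared splice junction. The table held 226 class o transcripts. The set described here holds 142 of them, out of 2455 transcripts with values in the whole table. It leaves out 65 transcripts named after microRNAs with a number, 16 transcripts of listed genes or loci, and 3 transcripts in an interval of chromosome 6. The 142 transcripts overlap 83 reference genes, and 43 of these genes carry an Ensembl identifier and no symbol. Each level below is that of the assembled transcript, which need not be the level of the reference gene it overlaps.

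Total RNA came from male Brown Norway (BN) rats 6 weeks old, with 1 sample for each of 6 tissues: liver, adrenal gland, hypothalamus, left ventricle, outer medulla and cortex. No group carried a treatment or a genetic change in the labels, and the label of the cortex names no organ. Each tissue had 2 columns of FPKM (fragments scaled by transcript length and library total). Pairs of values below are those of columns 1 and 2, in that order. The column code for hypothalamus was assigned because the other names left no other choice, and every hypothalamus value depends on that step. Nothing in the labels says that columns 1 and 2 came from separate animals, so the p-values below measure only the spread between these columns, which may be technical.

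A long non-coding RNA is a transcript with no long open reading frame that is thought to be translated. Transcripts that overlap an exon of a known gene include unspliced precursors of small RNAs, extended or alternative ends of protein-coding messages, and RNAs from neighbouring gene copies. An overlap alone does not tell these apart, and it does not say which strand the reads came from when the strand setting of the counting is not given. Exon overlaps called antisense have a code of their own, x, with 189 transcripts, and are not part of class o. In bulk tissue RNA, fewer cells of a type and less RNA per cell cannot be told apart.

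The let-7 host transcripts are the members that overlap a known small RNA gene. The let-7 family of microRNAs pairs with target messages through its seed, bases 2 to 8, and is known for repressing growth genes in differentiated tissue. Of the class o transcripts, 14 overlap 3 let-7 genes: 8 overlap Mirlet7c-2, 5 overlap Mirlet7c-1 and 1 overlaps Mirlet7a-1. The mature sequences are shown because the 3 genes share a seed. They are from RefSeq, build GRCr8, 5′ to 3′, with the seed in capitals.
rno-let-7c-5p: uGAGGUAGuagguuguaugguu
rno-let-7a-5p: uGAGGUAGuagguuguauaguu
rno-let-7c-2-3p: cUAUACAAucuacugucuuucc
rno-let-7a-1-3p: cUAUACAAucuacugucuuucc
The 5p arms differ at a single base, A19G, with the let-7a-5p base first and positions counted from 1 at the 5′ end. This base lies outside the seed. The 3p arms listed for Mirlet7c-2 and Mirlet7a-1 have the same sequence.

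The hairpins of the 3 genes are shown next, to set the mature arms beside the host transcripts, with the mature arms in capitals. They lie on the plus strand of GRCr8 at chr7:118683623-118683717 for Mirlet7c-2, chr11:29688112-29688205 for Mirlet7c-1 and chr17:16320133-16320226 for Mirlet7a-1.
Mirlet7c-2: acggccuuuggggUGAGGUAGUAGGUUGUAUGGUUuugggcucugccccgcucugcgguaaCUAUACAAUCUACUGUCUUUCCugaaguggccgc
Mirlet7c-1: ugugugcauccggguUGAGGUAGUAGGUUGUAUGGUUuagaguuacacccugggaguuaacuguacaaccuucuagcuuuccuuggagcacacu
Mirlet7a-1: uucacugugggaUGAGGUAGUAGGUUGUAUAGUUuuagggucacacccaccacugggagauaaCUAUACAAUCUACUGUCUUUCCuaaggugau
RefSeq lists 2 mature arms for Mirlet7c-2 and 1 for Mirlet7c-1.

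The FPKM columns of this total RNA table count long fragments of the host transcripts and do not measure mature let-7. The 14 let-7 host transcripts were 3855 to 27542 bases long and were low, with a highest single value of 1.68 FPKM. Summed over its 8 transcripts, Mirlet7c-2 reached 2.89 and 3.11 FPKM in adrenal gland, followed by left ventricle (1.82 and 1.83) and outer medulla (1.53 and 1.75). Next came cortex with 1.13 and 1.31, liver with 0.693 and 0.9996, and hypothalamus with 0.636 and 0.423. Both adrenal columns were above every other column. Hypothalamus was the lowest tissue as deposited, and liver was the lowest with the columns rescaled to a common median.

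The Mirlet7c-2 sum differed between tissues (limma moderated F, Benjamini-Hochberg adjusted p = 0.001). Its adrenal level exceeded that of left ventricle by 0.69 on the log2(FPKM + 0.1) scale, which did not pass the test (limma adjusted p = 0.085), although it passed with a pseudocount of 1 and without either liver column (3 of 16 other settings). All log2 differences here are on this scale, which understates the change of low transcripts. The Mirlet7c-1 sum lay between 0.961 and 2.42 FPKM in all 12 columns and did not pass the F test (limma adjusted p = 0.19). The 1 transcript of Mirlet7a-1 stayed at or below 0.346 FPKM. This transcript therefore stayed below the threshold used here to count a transcript as detected, a mean of 0.5 FPKM in a tissue. It was measured all the same: in left ventricle column 1, which held the 0.346, 3 fragments of its 11107 bases would give 0.0264.

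Class o transcripts as a set were detected as often as the table as a whole. A mean of at least 0.5 FPKM in some tissue was reached by 104 of 142 (73.2%), against 73.8% of all transcripts. Detection in exactly 1 tissue was seen in 35.6% of the detected class o transcripts, against 49.6% over the whole table. Detection in all 6 tissues was seen in 16.3%, against 7.84%. This breadth is not particular to class o. The same share was 17.9% in class = (a match to a reference) and 35.4% in class j (a shared splice junction). It was 2.67% in class x and 5.8% among transcripts with no reference gene. The median length of the class o transcripts was 2009 bases, against 1758 over the whole table. No test was made of these differences, since transcripts of 1 gene share reads.

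The columns differed in depth and in their levels of transcripts high in another tissue. Implied depth ran from 3940000 fragments (liver column 2) to 32640000 (hypothalamus column 2), so low values in liver column 2 are the least precise. Over the whole table, transcripts high in adrenal gland kept a median of 11.7% of that level in column 1 of hypothalamus and 5.23% in column 2. Transcripts high in hypothalamus kept 2.84% in column 1 of adrenal gland and 19.5% in column 2. Rescaling the columns to a common median raised both hypothalamus columns by 0.80 and 0.87 on the log2 scale and moved the other columns by 0.46 or less. The lists of marker genes for hepatocytes, kidney tubule, cardiomyocytes, adrenal cells, neurons, small RNA hosts and translation had 0 genes among the class o transcripts, so no marker list describes them.

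A transcript is called restricted here when the tissue with its top level lay above every one of the 5 others (limma, largest of the 5 p-values, Benjamini-Hochberg adjusted over all transcripts tested, below 0.05). Among the 84 class o transcripts at a mean of 1 FPKM or more, 33 were restricted (39.3%), against a background of 45.7% of all 1269 transcripts tested. By tissue, 14 were restricted to adrenal gland, 10 to liver, 5 to hypothalamus, 2 to left ventricle, 1 to cortex and 1 to outer medulla. The background shares are 9.3% for adrenal gland, 13.3% for liver, 5.75% for hypothalamus, 8.04% for left ventricle, 6.46% for cortex and 2.84% for outer medulla. The adrenal share of the class o transcripts, 16.7%, was above its background, and the shares of cortex and left ventricle were below theirs. Of these 14 adrenal calls, 8 lay in 2 intervals of chromosome 9, where transcripts may share reads. The adrenal share therefore counts transcripts that are not independent, and it is not read as a trait of the class. By a rule of size with no test, at least 5-fold above every column of the other tissues in both columns, 13 class o transcripts were called (background 20.4%). The F test over tissues called 62 of the 84 (73.8%, background 81.1%).

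**Figure D1:**
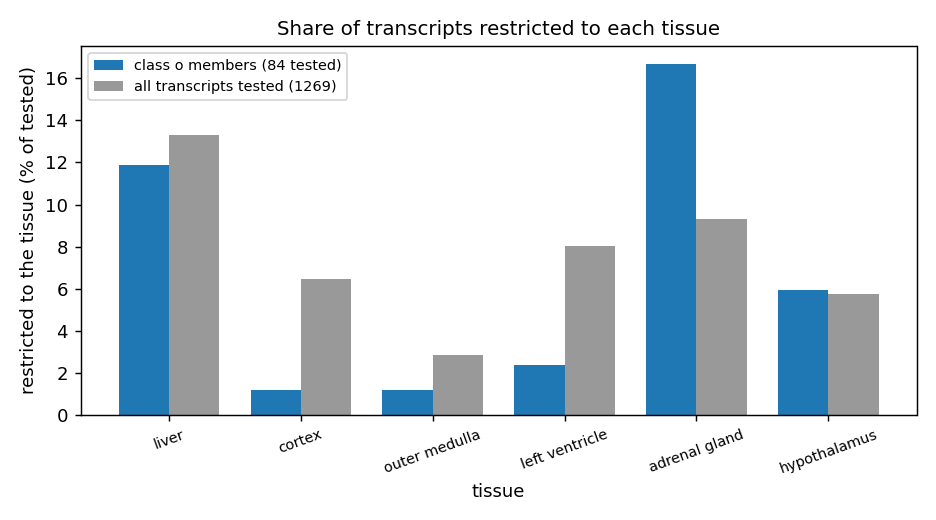
Share of tested transcripts restricted to each tissue, in percent, for the 84 class o transcripts (blue) and all 1269 transcripts tested (grey). Adrenal gland holds the highest class o bar, 16.7% against 9.3%, and cortex and outer medulla the lowest. Of the 14 adrenal transcripts, 8 lie in 2 intervals of chromosome 9 and may share reads.

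**Figure D2:**
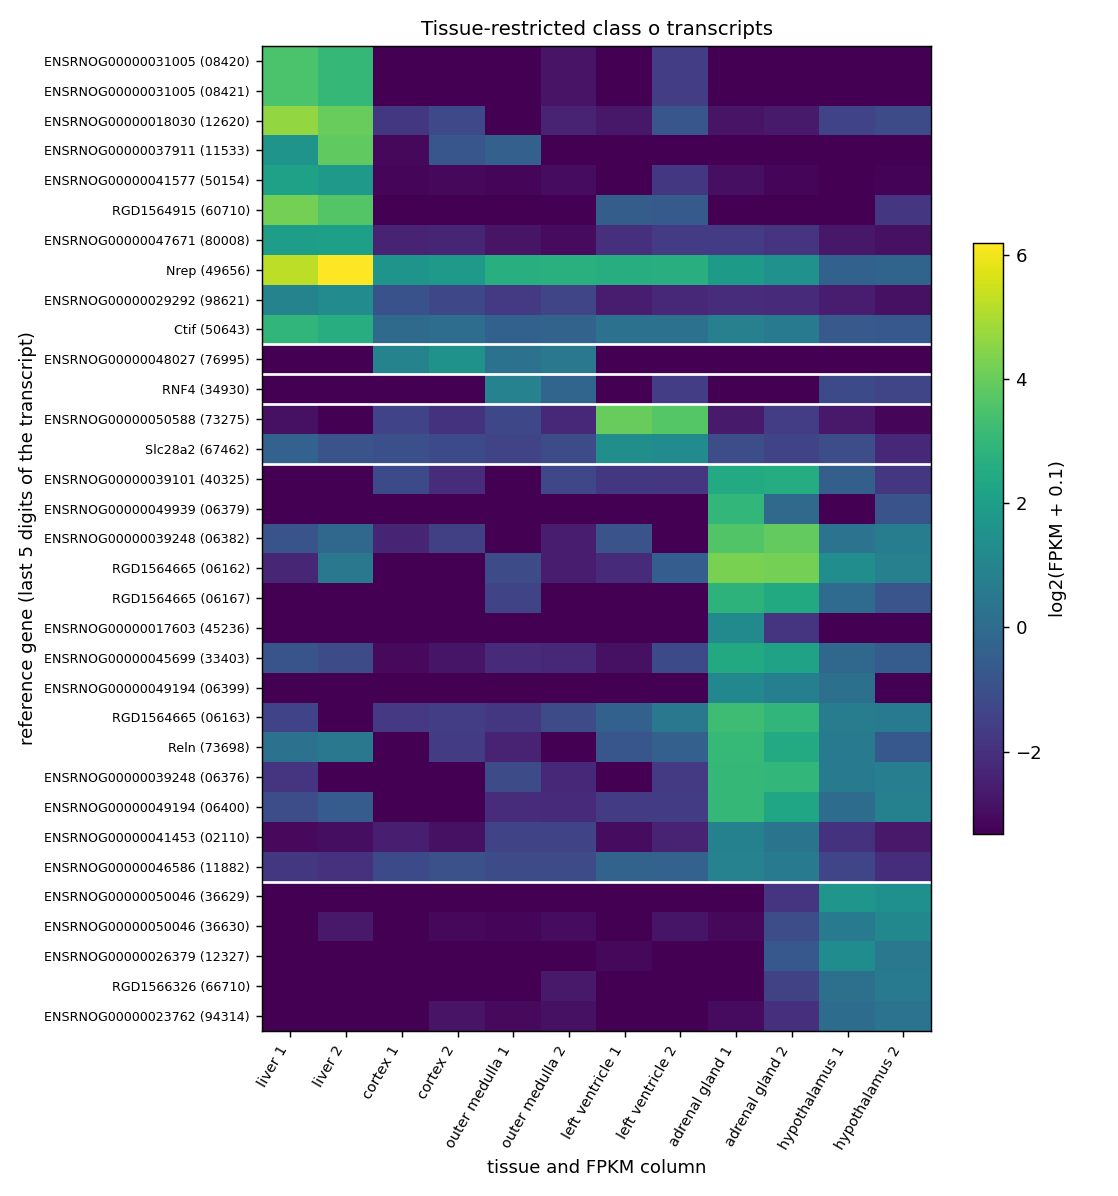
Levels of the 33 restricted class o transcripts in the 12 columns, as log2(FPKM + 0.1), grouped by tissue with white lines. The adrenal block also shows raised hypothalamus columns, and the hypothalamus block raised values in adrenal column 2.

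Class o transcripts of genes with a symbol were seldom restricted. Of the 34 tested transcripts whose reference gene has a symbol or clone name and no RGD number, 5 were restricted (14.7%): Nrep, Ctif, Slc28a2, RNF4 and Reln. Of the 50 with only an Ensembl identifier or RGD number, 28 were restricted (56%). This split was made after the values were seen. The background is 45.7%. In the other classes tied to a reference gene the share was 9.09% (class =), 15.5% (class j) and 51.4% (class x). The 28 include 8 transcripts of the chromosome 9 intervals and the 2 identical ones over ENSRNOG00000031005, which are not independent. The whole table was not split by symbol, so the contrast is not read as a trait of class o. The table available for gene names matched 34 of the 83 reference genes and 0 Ensembl identifiers, so the function of the second kind is not named.

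The liver transcript with the highest level overlapped Nrep, the gene of the neuronal regeneration related protein. This 6347-base transcript lies at chr18:25897836-25928540 (rn5, as deposited). Liver held 38.2 and 72.8 FPKM, outer medulla 6.07 and 6.44, left ventricle 6.04 and 6.37, and cortex 2.92 and 3.31. Adrenal gland held 3.50 and 2.70, and hypothalamus only 0.670 and 0.738. Both liver columns were far above the rest and did not overlap them. Liver exceeded outer medulla by 3.06 (SE 0.32; limma adjusted p = 0.00012), an 8.32-fold difference, and this call held in all 21 other settings.

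A 27361-base transcript over Ctif, a factor that starts translation on newly capped messages, stood at 7.65 and 5.94 FPKM in liver. Adrenal gland came next at 1.68 and 1.46, and all other columns lay between 0.518 and 1.10. Liver exceeded adrenal gland by 2.04 (SE 0.25; limma adjusted p = 0.00026), also in all 21 other settings. Thus Nrep and Ctif had a measurable level in every tissue and a higher one in liver.

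Most of the other liver transcripts were close to absent elsewhere. A 304-base transcript over RGD1564915 stood at 18.2 and 12.4 FPKM in liver, with 0.591 and 0.552 in left ventricle and at most 0.182 in any other column. A transcript over ENSRNOG00000018030 stood at 25.2 and 15.8 in liver and at most 0.490 elsewhere. The 2 transcripts over ENSRNOG00000031005 had the same length, 766 bases, and the same value in every column, 11.1 and 8.03 in liver, so they count as 1 measurement. Liver exceeded the next tissue by 4.49, 5.57 and 5.71 in these transcripts (limma adjusted p = 0.00012, 0.00019 and 5.7e-05). All 3 calls held in the 21 other settings.

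ENSRNOG00000037911 is a less stable liver case, because its liver columns differed. Of its 5 transcripts, 3 had identical values that never exceeded 0.00074 FPKM, and 4 were below 0.5 FPKM in every tissue. The remaining one stood at 2.93 and 14.5 FPKM in liver and at most 0.652 elsewhere (log2 difference 4.60; limma adjusted p = 0.0102). The call was lost in 5 of 21 other settings, among them those without liver column 2, cortex column 1 or outer medulla column 2. A transcript of the same gene identifier with no reference gene, TCONS_00111534, showed the same imbalance in liver, at 0.773 and 13.1 FPKM. The last 3 liver transcripts, named after their values were seen, overlapped ENSRNOG00000041577 (4.23 and 3.46 FPKM in liver), ENSRNOG00000047671 (3.96 and 4.03) and ENSRNOG00000029292 (1.79 and 2.32).

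Left ventricle had 2 restricted transcripts. The transcript over ENSRNOG00000050588 stood at 15.7 and 12.9 FPKM in left ventricle and at most 0.323 in any other column. Its difference from the next tissue, cortex, was 5.50 (SE 0.50; limma adjusted p = 5.5e-05) and held in all 21 other settings. A 727-base transcript over Slc28a2, a sodium-coupled nucleoside transporter, stood at 2.49 and 2.32 in left ventricle and between 0.107 and 0.701 elsewhere. Liver was its next tissue, at 0.701 and 0.439, lower by a log2 difference of 1.93 (SE 0.43; limma adjusted p = 0.006), and the call held in all 20 other settings.

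Summing near-identical transcripts brought out a further left ventricle locus, ENSRNOG00000046244. Its 2 transcripts, of 478 and 481 bases, traded places between columns: adrenal gland was listed at 4.51 and 0.000176 FPKM for TCONS_00060851, and at 0.021 and 5.002 for TCONS_00060852. Neither transcript was restricted alone (limma adjusted p = 0.98 and 0.18). Their sum was steady between columns. Left ventricle held 30.7 and 25.1 FPKM, and outer medulla followed with 6.63 and 5.64. Cortex held 5.20 and 4.13, while adrenal gland held 4.53 and 5.003. The lowest tissues were liver with 3.39 and 3.04, and hypothalamus with 2.86 and 2.01. The left ventricle columns did not overlap the others, and the sum exceeded that of outer medulla by 2.16 (SE 0.26; limma adjusted p = 0.00022), a 4.48-fold difference that held in all 16 other settings.

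Samd9l, an interferon-induced gene that restrains growth and viruses, showed the same effect in outer medulla. Its 4 class o transcripts were 255 to 911 bases long, and none passed the test alone. Summed, outer medulla held 19.4 and 18.3 FPKM, cortex 6.43 and 7.10, left ventricle 4.54 and 3.51, and liver 1.94 and 3.52. Adrenal gland held 2.19 and 2.22, and hypothalamus 1.14 and 2.79. Outer medulla was the highest tissue in both columns, followed by cortex. The sum exceeded that of cortex by 1.47 (SE 0.43; limma adjusted p = 0.0218), a 2.76-fold difference. Without either cortex column or either outer medulla column the adjusted p lay between 0.065 and 0.088, so this call needs all 4.

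**Figure D3:**
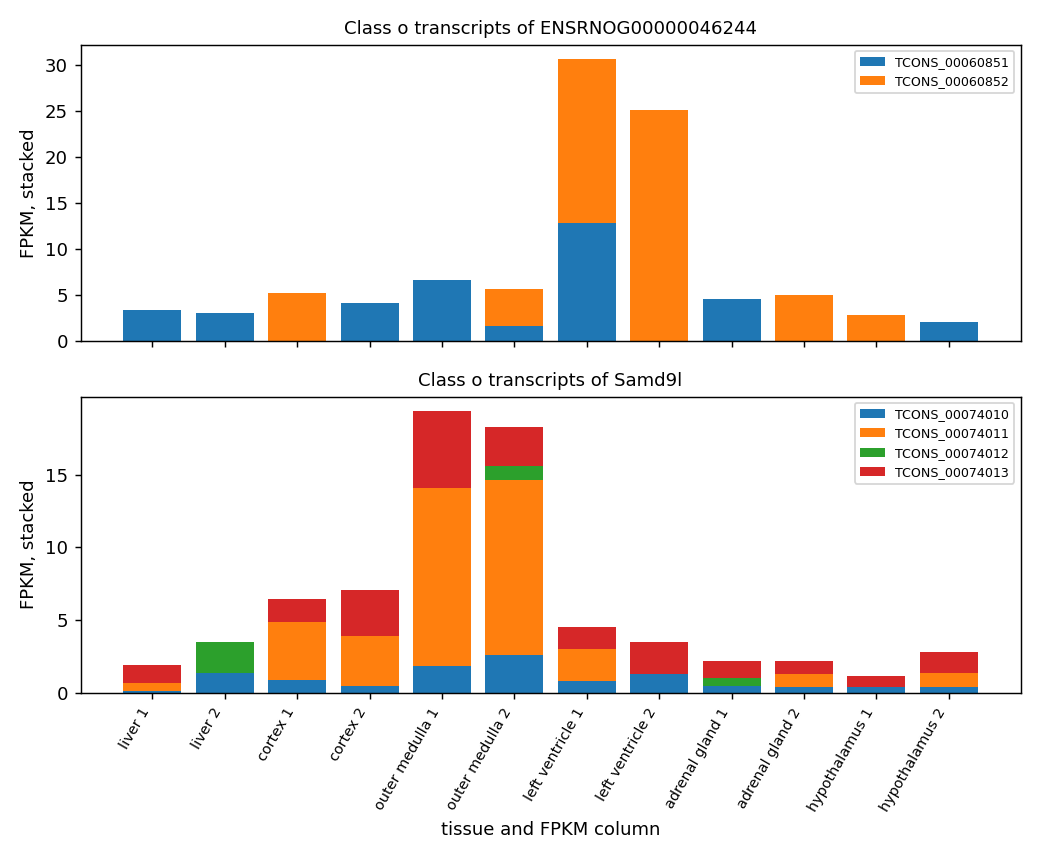
FPKM of each class o transcript, stacked, in the 12 columns for ENSRNOG00000046244 (top) and Samd9l (bottom). Single transcripts swap between columns at ENSRNOG00000046244, while the stacked height stays near 30.7 and 25.1 in left ventricle; at Samd9l the height is greatest in outer medulla, at 19.4 and 18.3.

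Columns of a tissue also differed at other class o transcripts. In 22 pairs of a transcript and a tissue at a mean of 1 FPKM or more, the 2 columns differed by at least 4-fold. Of these, 16 pairs were at reference genes with 2 or more class o transcripts, 8 of them at ENSRNOG00000046244, and 6 were at genes with 1. Such pairs made up 18.2% of the class o transcripts at that level in liver (19.9% in the whole table), 10% in cortex (4.45%) and 16% in left ventricle (7.61%). In adrenal gland the share was 11.6% (7.18%), in hypothalamus 10.7% (4.94%) and in outer medulla 3.23% (3.7%). The liver and outer medulla shares were thus near the background, and the others were above it. Ppp1r3c, which targets a phosphatase to glycogen, stood at 22.5 and 18.8 FPKM in left ventricle, and in liver at 12.8 and listed at 0. Sez6, a neuronal membrane protein, stood at 2.97 and 2.84 in hypothalamus, and in liver at 4.13 and listed at 0. Neither was restricted (limma adjusted p = 0.34 and 0.29), and in both the liver columns overlapped the range of the other tissues.

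Outer medulla and cortex were compared directly, since both are names of kidney zones, although the cortex label does not say so. Of 35 class o transcripts at 1 FPKM or more in either tissue, 2 differed and both were higher in outer medulla (limma with Benjamini-Hochberg adjustment). This direction depended on the scale: with a pseudocount of 1, 3 were higher and 4 lower, and with rescaled columns 1 was higher and 1 lower. Of all 604 transcripts tested this way, 21.4% differed, 6.95% higher and 14.4% lower in outer medulla. The first overlapped RNF4, a ubiquitin ligase that recognises SUMO chains. It stood at 1.74 and 0.764 FPKM in outer medulla and was listed at 0 in both cortex columns, where 3 fragments would give 0.412 and 0.466 (limma adjusted p = 0.0022). The second, over ENSRNOG00000049843, stood at 1.86 and 1.03 in outer medulla and was listed at 0 in both cortex columns (limma adjusted p = 0.0058). Both levels are those of few fragments. RNF4 was also restricted to outer medulla (limma adjusted p = 0.0446), but 12 of 17 other settings lost that call, among them those without either liver, cortex, adrenal or hypothalamus column.

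In the sums, Samd9l was a further difference between outer medulla and cortex (limma adjusted p = 0.0397), and 10 of 16 other settings put it at or above 0.05. These were the settings with a pseudocount of 0.01 or rescaled columns and those without any 1 of the 8 columns of cortex, outer medulla, left ventricle or adrenal gland. The sum over the 2 transcripts of ENSRNOG00000049843 also passed (limma adjusted p = 0.0061), except without cortex column 2, at 0.053.

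Some class o transcripts were shared by cortex and outer medulla and low elsewhere. ENSRNOG00000048027, with 4 transcripts, summed to 24.3 and 23.0 FPKM in cortex and to 13.2 and 13.6 in outer medulla, with at most 1.63 in any other column. Cortex was the higher in both columns. The difference between the 2 tissues did not pass for the sum (limma adjusted p = 0.65). One of its transcripts, TCONS_00076995, at 1.79 and 2.88 in cortex but 1.11 and 1.29 in outer medulla, was the only one restricted to cortex (log2 difference 0.87; limma adjusted p = 0.0387). That call was lost in 9 of 20 other settings, among them those without cortex column 2 or without either column of outer medulla or hypothalamus.

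ENSRNOG00000048752, named after its values were seen, summed to 3.84 and 3.44 FPKM in cortex, to 2.62 and 2.54 for outer medulla, with at most 0.144 elsewhere. The 4 transcripts of ENSRNOG00000027013 added left ventricle to this pair. Left ventricle held 4.91 and 4.80 FPKM in sum, cortex 3.002 and 3.63, outer medulla 3.04 and 2.23, and the others at most 0.675. Gm20654 had adrenal gland as a further tissue, at 5.61 and 3.91 FPKM, beside 3.46 and 3.88 for cortex, and outer medulla held 2.69 and 2.85. Its other columns held at most 0.360. A transcript over Cachd1, a membrane protein related to calcium channel subunits, had 2.29 and 2.08 in cortex, 2.30 and 2.03 for outer medulla and at most 0.892 elsewhere.

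Adrenal gland held 14 restricted transcripts over 10 reference genes, and 8 of the 14 lay in 2 intervals of chromosome 9. These intervals, chr9:7319662-7502218 and chr9:11060508-11560435 (rn5, as deposited), hold 14 class o transcripts over 4 reference genes: RGD1564665, ENSRNOG00000039248, ENSRNOG00000049939 and ENSRNOG00000049194. All but 1 of these 14 were tested, and all 13 tested ones were highest in adrenal gland. The intervals were picked because they hold adrenal calls, and a transcript could enter the test through its adrenal level alone. Nothing is therefore read from this count. The transcripts were short, 195 to 1192 bases, with 13 under 1000 bases. Transcripts listed at the same interval may share reads, and reads from similar gene copies may be divided among them, so they are not independent and their single values are uncertain.

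Summed per reference gene, RGD1564665 stood at 37.5 and 34.9 FPKM in adrenal gland and at 6.05 and 3.49 in hypothalamus, with all other columns at 3.12 or less. ENSRNOG00000039248 stood at 36.5 and 48.7 in adrenal gland and at 11.3 and 6.72 in hypothalamus, with at most 2.09 elsewhere. ENSRNOG00000049194 stood at 9.98 and 6.44 in adrenal gland and at 1.96 and 1.69 in hypothalamus, with at most 0.584 elsewhere. In these 3 genes hypothalamus came next and did not overlap adrenal gland. The log2 differences were 2.95, 2.26 and 2.08 (limma adjusted p = 0.0178, 0.0134 and 0.00095). These sums hold class o transcripts of the set only. Some left-out transcripts held more in hypothalamus relative to adrenal gland. TCONS_00106165 (class j, RGD1564665) held 6.71 and 4.46 against 18.0 and 12.5. TCONS_00106361, of a listed locus over ENSRNOG00000039248, held 4.25 and 3.29 against 4.83 and 4.69. The antisense TCONS_00108360 over RGD1564665 held 0.225 and 0.0972 against 1.14 and 0.972.

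The call of ENSRNOG00000049194 held in all 16 other settings. For RGD1564665 the adjusted p was 0.08 with rescaled columns, 0.072 and 0.066 without adrenal column 1 or 2, and 0.097 without hypothalamus column 2. For ENSRNOG00000039248 it was 0.1 with rescaled columns, 0.07 without adrenal column 2 and 0.083 without hypothalamus column 2. The sum of ENSRNOG00000049939 did not pass (limma adjusted p = 0.35), at 15.4 and 11.5 FPKM in adrenal gland and 3.80 and 3.26 in outer medulla. Its left ventricle columns were listed at 0 and at 4.62.

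**Figure D4:**
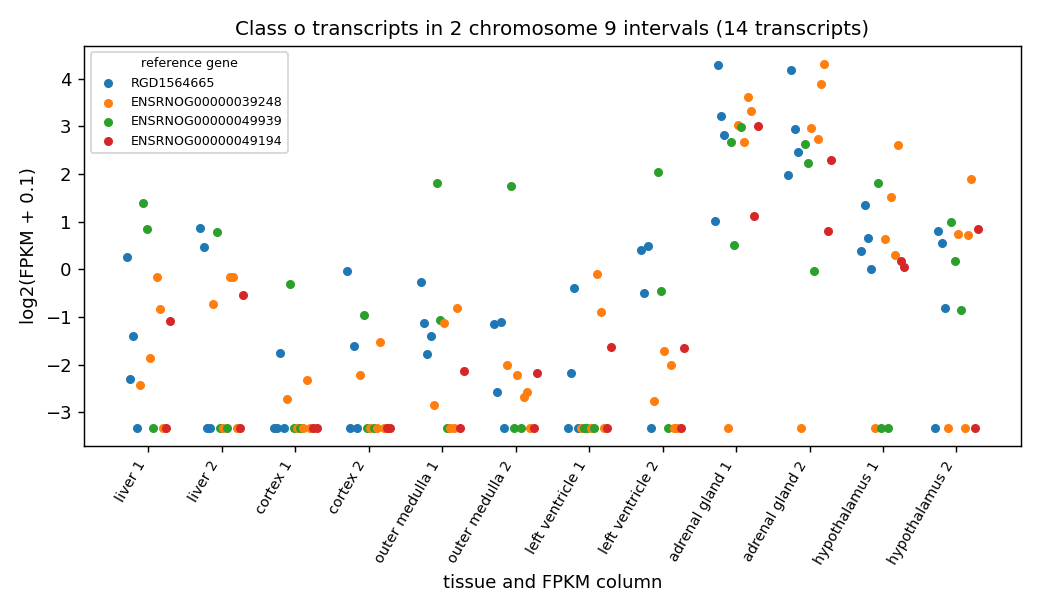
Levels of the 14 class o transcripts of the 2 chromosome 9 intervals in the 12 columns, as log2(FPKM + 0.1), coloured by reference gene. In adrenal gland 13 of the 14 stand above their level in every other tissue on average, and hypothalamus is the next tissue for most. The intervals were picked because they hold adrenal calls, so nothing is read from the 13.

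The highest single transcript of the chromosome 9 group, TCONS_00106162 over RGD1564665, stood at 19.4 and 18.1 FPKM in adrenal gland and at 2.45 and 1.65 in hypothalamus. Its log2 difference from hypothalamus was 3.16 (SE 0.93; limma adjusted p = 0.0236), lost in 7 of 21 other settings. Among these were the rescaled columns and leaving out any 1 adrenal or hypothalamus column. The shortest, the 195-base TCONS_00106379 over ENSRNOG00000049939, stood at 7.79 and 0.876 in adrenal gland, where 3 fragments would give 4.03 and 3.07. Its restricted call (limma adjusted p = 0.0189) therefore rests on few fragments, and it was lost without hypothalamus column 1.

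Of the 14 adrenal transcripts, 10 had hypothalamus as the next tissue. The 16 class o transcripts high in adrenal gland kept a median of 14.7% of that level in column 1 of hypothalamus and 8.21% in column 2. Over all 121 transcripts of the table high in adrenal gland the medians were 11.7% and 5.23%. Whether RNA of one tissue in the columns of the other bears on these values was not tested. Without adrenal column 2 and hypothalamus column 1, a choice made after seeing the data, 11 transcripts were restricted to adrenal gland. Without adrenal column 1 the number was 6, and without hypothalamus column 2 it was 8.

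Outside chromosome 9, the transcript over ENSRNOG00000039101 had the largest adrenal difference, at 5.53 and 5.83 FPKM in adrenal gland and at most 0.629 elsewhere (log2 difference 3.67; limma adjusted p = 0.0028). A 741-base transcript over Reln, which encodes the secreted glycoprotein reelin that guides neuron layering, stood at 8.09 and 5.59 in adrenal gland. Liver was next at 1.10 and 1.29, and hypothalamus held 1.45 and 0.521. The Reln difference of 2.41 (SE 0.66; limma adjusted p = 0.017) was lost in 6 of 21 other settings, among them those without either liver column, adrenal column 1 or hypothalamus column 2.

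The 4 remaining adrenal transcripts were named after their values were seen. They overlapped ENSRNOG00000045699 (5.40 and 4.38 FPKM in adrenal gland), ENSRNOG00000041453 (1.73 and 1.15), ENSRNOG00000046586 (1.76 and 1.36) and ENSRNOG00000017603 (2.26 and 0.177). The last was listed at 0 in all 10 other columns.

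Psd3, an exchange factor for Arf6, overlapped a transcript high in 2 tissues. It stood at 11.2 and 7.08 FPKM in adrenal gland, 8.48 and 5.53 in liver, 2.31 and 3.32 in left ventricle, and 2.29 and 1.31 in hypothalamus. Cortex and outer medulla held 0.613 to 0.903. Adrenal gland and liver overlapped (limma adjusted p = 0.52), while the F test over tissues passed (limma adjusted p = 0.00027).

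Hypothalamus had 5 restricted transcripts over 4 reference genes, and adrenal gland was the next tissue in all 5. The 2 transcripts of ENSRNOG00000050046 summed to 4.45 and 4.72 FPKM in hypothalamus, to 0.0168 and 0.548 in adrenal gland and to at most 0.0584 elsewhere. This sum exceeded that of adrenal gland by 4.09 (SE 0.69; limma adjusted p = 0.0015), and the call held in all 16 other settings. The transcript over ENSRNOG00000026379 stood at 2.39 and 1.31 in hypothalamus, and that over RGD1566326 at 1.03 and 1.44. ENSRNOG00000023762, named after its values were seen, stood at 0.919 and 1.13. With a pseudocount of 0.01, 2 of the 5 hypothalamus calls were left. Those of ENSRNOG00000026379, RGD1566326 and TCONS_00036630, a transcript of ENSRNOG00000050046, were lost. ENSRNOG00000026379 also lost its call without hypothalamus column 1.

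In adrenal gland these 5 transcripts were concentrated in column 2. There they kept a median of 20.8% of the level seen in hypothalamus, against a median of 0% in adrenal column 1. The medians over all 79 transcripts of the table high in hypothalamus were 19.5% and 2.84%. With rescaled columns 10 class o transcripts were restricted to hypothalamus, and with no FPKM minimum 12. ENSRNOG00000030912, with 3 transcripts below 0.5 FPKM in every tissue, summed to 0.652 and 0.826 in hypothalamus and to at most 0.141 elsewhere.

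**Figure D5:**
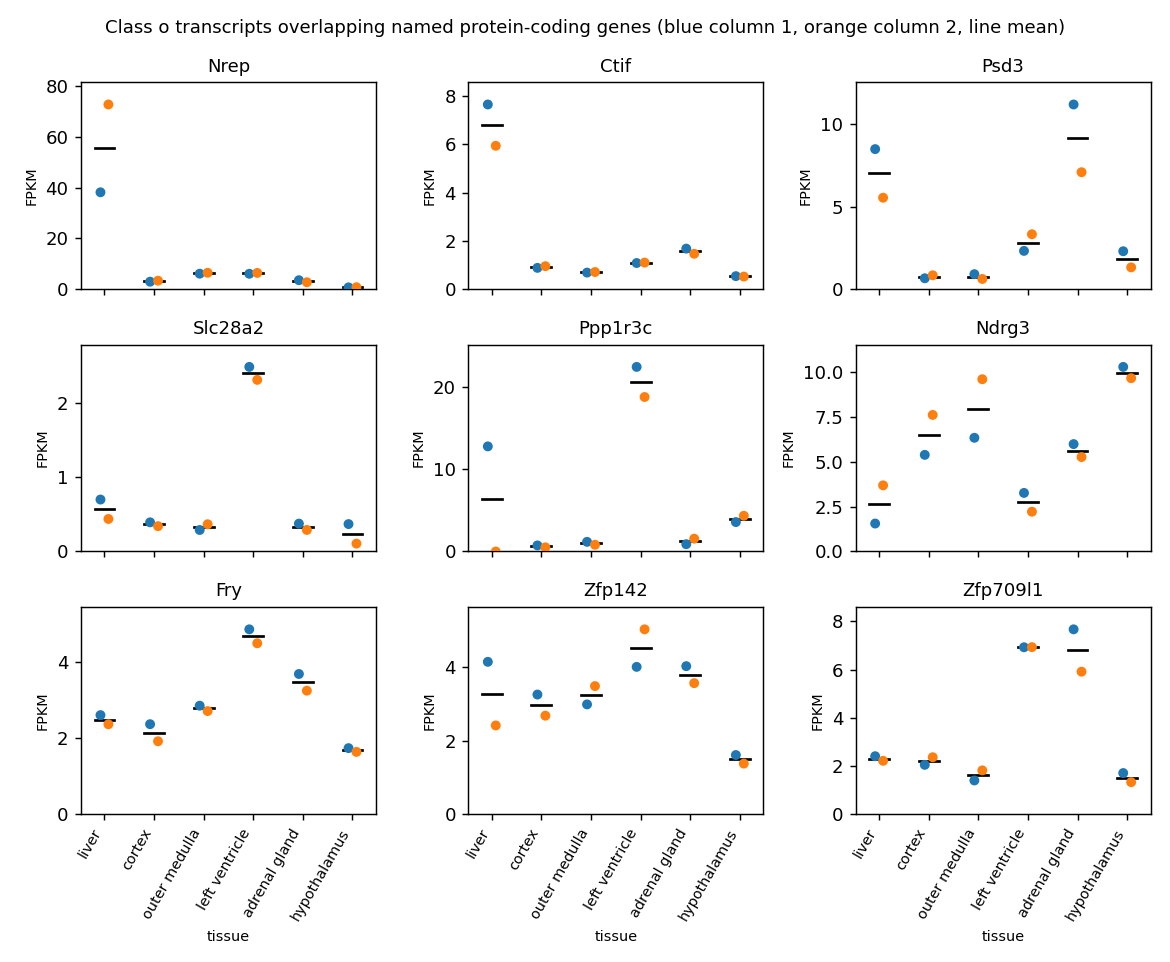
FPKM of 9 class o transcripts over named protein-coding genes by tissue (blue column 1, orange column 2, line the mean; each panel has its own axis from 0). Nrep and Ctif are high in liver, Slc28a2 in left ventricle, and Ndrg3, Fry, Zfp142 and Zfp709l1 are present in all 6 tissues.

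A few class o transcripts were present everywhere. A mean of at least 1 FPKM in all 6 tissues was reached by 5 of 142 transcripts, over Zfp142, Ndrg3, Fry, Zfp709l1 and ENSRNOG00000046244, and by 59 of 2455 in the whole table. The one over ENSRNOG00000046244, TCONS_00060851, reached it only as a mean, since it was at or near 0 in 1 column of 4 tissues. The tissue index tau, which is 0 for an even level and 1 for a level in a single tissue, was 0.209 for the zinc finger gene Zfp142 and 0.273 for Ndrg3. It was 0.285 for Fry, a homologue of the fly furry protein, against a median of 0.795 over the tested class o transcripts and 0.825 over the whole table.

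The Zfp142 transcript stood at 4.02 and 5.04 FPKM in left ventricle and at 1.61 and 1.37 in hypothalamus, its lowest tissue. Its levels still differed between tissues (limma moderated F, adjusted p = 0.0199). The Ndrg3 transcript, of 348 bases, stood at 10.3 and 9.67 in hypothalamus, 6.35 and 9.61 in outer medulla and 1.56 and 3.69 in liver. The Fry transcript stood at 4.87 and 4.50 in left ventricle and at 1.74 and 1.64 in hypothalamus. Hypothalamus was thus the lowest tissue for Zfp142 and Fry and the highest for Ndrg3 as deposited. With rescaled columns it stayed the highest for Ndrg3, while outer medulla became the lowest for Zfp142 and cortex for Fry.

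Zfp709l1, a zinc finger gene, overlapped a transcript with 2 high tissues. It stood at 6.93 and 6.93 FPKM in left ventricle and 7.67 and 5.91 in adrenal gland, against 1.32 to 2.40 in the other 8 columns. The 2 high tissues overlapped each other and not the rest. Of 6 tested transcripts over genes named as zinc fingers (Zfp142, Zfp709l1, Zfp444, Zfp865, Zbed4 and Zc3h11a), 0 were restricted (background 45.7%) and 4 differed between tissues by the F test (background 81.1%). This group was formed after its values were seen, and with 6 members nothing is read from these counts.

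Other transcripts over named genes differed between tissues without being restricted. Rbpj, the transcription factor of Notch signalling, overlapped a transcript at 2.05 and 1.502 FPKM in adrenal gland and 0.612 and 0.684 in hypothalamus. The transcript over Zbed4 ran from 0.544 in hypothalamus to 1.88 in outer medulla, that over Strbp, an RNA-binding protein, from 0.392 to 2.42, and that over Zc3h11a from 0.774 to 4.36. C330018D20Rik overlapped a transcript at 0.330 and 0.478 in hypothalamus and 0.930 to 1.83 elsewhere. With rescaled columns Rbpj stood at 1.07 and 1.25 in hypothalamus, and cortex became its lowest tissue, while left ventricle became the lowest for Zbed4. All 5 differed between tissues by the F test (limma adjusted p from 0.0012 to 0.038), and none was restricted.

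Transcripts over Zfp444, Zfp865, Armcx5, Olr1585 and Gtpbp6 did not pass the F test (limma adjusted p from 0.064 to 0.75). The Gtpbp6 transcript stood at 0.442 and 2.77 FPKM in cortex but 1.30 and 0.000325 in outer medulla. Prkcz, an atypical protein kinase C, overlapped a transcript at 1.09 and 1.36 in left ventricle and 1.22 and 0.301 in cortex that was listed at 0 in the 8 other columns. The 217-base transcript over Spetex-2F held 7.08 and 2.45 in outer medulla, with left ventricle at 1.21 and 6.22. Prkcz and Spetex-2F passed the F test (limma adjusted p = 0.00028 and 0.005). Spetex-2F was listed at 0 in both liver columns, where 3 fragments would give 3.10 and 9.76. In each left ventricle column 3 fragments would give 3.71. The Spetex-2F result therefore rests on few fragments. At Gtpbp6, Prkcz and Spetex-2F the columns of the 2 tissues given overlapped.

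Fhit, a hydrolase of dinucleotides at a fragile chromosomal site, had 3 long class o transcripts of 18289 to 27290 bases. Their sum stood at 2.03 and 5.08 FPKM in liver, 2.29 and 1.78 in adrenal gland, and only 0.667 and 0.657 for hypothalamus. The gap between the liver columns came from TCONS_00035941, listed at 0 and at 2.94. The sum differed between tissues (limma moderated F, adjusted p = 0.0109), and no tissue stood above all others (limma adjusted p = 0.23).

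The gene with the most class o transcripts was ENSRNOG00000039295 on chromosome X, with 13. Of these, 10 were below 0.5 FPKM in every tissue, and 3 of the 10 were listed at 0 in every column. Summed, they stood at 0.241 and 0.110 in liver, 1.31 and 1.07 in left ventricle and 1.44 and 1.94 in hypothalamus. Cortex, adrenal gland and outer medulla held 2.41 to 3.002. Liver was the lowest tissue in both columns, also with rescaled columns, where hypothalamus became the highest at 2.51 and 3.55. The sum as deposited differed between tissues (limma moderated F, adjusted p = 9.9e-05). Over the whole set, 38 of 142 transcripts stayed below 0.5 FPKM in every tissue (26.8%, against 26.2% of the whole table). A low FPKM need not rest on few fragments, since that depends on length. In adrenal column 1, 3 fragments would give 4.03 FPKM at 195 bases and 0.00824 at 27542 bases.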

How the data were processed

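Per the file headers, the deposited table is laid out like Cufflinks output and gives FPKM and a length in bases for each lncRNA that the authors chose, in 2 columns per tissue. The labels' protocols name TRIzol extraction and, for libraries, the TruSeq Stranded RNA LT kit by Illumina. Per the submitters' processing notes, bcl2fastq 2.15.0 and genome build rn5 were used. The aligner, annotation and strand setting were not given in the sources used here.

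Of 2458 transcripts, 3 without values were left out. FPKM is not a count, so count models were not used. limma 3.58.1 in R 4.3.3 was fitted with trend to log2(FPKM + 0.1), with tissue as the factor, over all transcripts at a mean of 1 FPKM or more; counts and figures used Python 3.11.15 and pandas 2.3.3. The fits were run on simulated data with independent normal error of the same size in every column. That simulation held no shared reads, depth differences or signal from another tissue, so it does not bear on these. Sums added, in each column, the FPKM of those class o transcripts of a reference gene that belong to the set. Depth came from the steps of low values, assuming fragments of 140 bases; between 86.0 and 92.3% of these lay within 0.15 of a whole number, and the depth covers counting error only.

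Transcripts named were the 6 highest, the 4 largest restricted differences per tissue, the 4 lowest tau among those at a mean of 1 FPKM in all 6 tissues, the outer medulla against cortex calls, reference genes with 3 or more class o transcripts, and those with a symbol at 1 FPKM. Members, lists and rules were chosen with earlier results of these data known. Alternatives were pseudocounts of 0.01 and 1, other FPKM minima, rescaled columns, a column block, sums per gene, a 5-fold rule, other tissue sets and leaving out each column.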

Additional observations from a re-analysis of the deposited data

How the results depend on the processing

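The 33 restricted class o transcripts became 15 with a pseudocount of 0.01, 16 with an FPKM minimum of 5 and 13 by a 5-fold rule in both columns, and ranged from 24 to 33 with each column left out in turn. The higher minimum left 28 transcripts to test. The 62 that differed between tissues became 23 with that minimum and ranged from 57 to 66 with a column left out. The 2 that differed between outer medulla and cortex became 7 with a pseudocount of 1, 4 with no minimum and 0 with a minimum of 5, and ranged from 2 to 4 with a column left out (4 without liver column 1, liver column 2 or cortex column 2). Of the named transcripts, 23 were restricted, against 9 with a pseudocount of 0.01, 15 with a minimum of 5, and 17 to 24 with a column left out. With a pseudocount of 0.01 the 14 adrenal calls became 2, the 5 of hypothalamus 2, the 10 of liver 9, and the single calls of cortex and outer medulla 0. The causes were not tested. A replicate block for the column number gave 33, 63 and 2. The number is only shared, since nothing ties same-numbered columns to 1 animal. Without adrenal column 2 and hypothalamus column 1, chosen after seeing the data, 27 were restricted; the settings for the sums were also added then. With a column left out, the lone column of that tissue is assumed to vary like the others. Low values in liver column 2 are limited most by depth.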
